A study of Mus musculus with 2 samples.

Results

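Genes of the tight and adherens junctions were followed across sorted lung cells: Cldn3, Cldn7, Cldn18, Ocln, F11r, Tjp1, Cdh1 and Epcam. They were taken by symbol and make up 8 of the 27998 features counted, and all 8 were found. The study holds 2 single-cell RNA libraries from lungs of male mice, 1 labelled IP-/- (IPKO), lacking the prostaglandin I2 receptor encoded by Ptgir, and 1 labelled WT. Both were made from cells that flow cytometry had sorted for EpCAM and against CD31, CD34, CD45 together with CD24 and Sca-1, called alveolar type 2 (AT2) cells in the labels. The labels name no treatment, injury, age or number of mice, and they do not say how the allele was made or whether its loss is limited to a cell type. With 1 library per label there was no replicate and no test, and every 95% interval below covers counting error only.

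Tight junctions seal the space between neighbouring epithelial cells. Claudins form the paracellular strands and set which ions pass, occludin (Ocln) sits in the same strands, and the junctional adhesion molecule encoded by F11r lies beside them. The scaffold protein encoded by Tjp1 ties these membrane proteins to actin, while E-cadherin (Cdh1) builds the adherens junction below. Epcam is an adhesion protein that binds the claudin encoded by Cldn7. In the alveolus these contacts keep fluid out of the air space, and Cldn18 is the claudin best known from the lung epithelium.

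Some of these genes carried the contrast between AT2 cells and the other sorted cells, and the 250 bases before their starts are printed below to show where they lie and how they differ in 1 motif (RefSeq, build GRCm38.p6, strand of the gene, 5' to 3'). Capitals mark the hexamer CAGGTG or its reverse complement CACCTG, the E-box form bound by Snai and Zeb repressors.
Cldn3, chr5:134985964-134986213, plus strand: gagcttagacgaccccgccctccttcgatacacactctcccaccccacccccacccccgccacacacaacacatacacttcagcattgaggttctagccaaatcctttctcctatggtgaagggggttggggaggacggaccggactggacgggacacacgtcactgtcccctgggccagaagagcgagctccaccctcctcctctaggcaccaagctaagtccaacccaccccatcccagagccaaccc
Cldn18, upstream start, chr9:99717268-99717517, minus strand: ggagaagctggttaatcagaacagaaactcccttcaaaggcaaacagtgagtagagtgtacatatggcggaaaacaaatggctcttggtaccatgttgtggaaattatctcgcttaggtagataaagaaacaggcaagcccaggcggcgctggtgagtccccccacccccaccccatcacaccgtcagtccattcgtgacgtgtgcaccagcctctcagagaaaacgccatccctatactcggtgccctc
Epcam, chr17:87635729-87635978, plus strand: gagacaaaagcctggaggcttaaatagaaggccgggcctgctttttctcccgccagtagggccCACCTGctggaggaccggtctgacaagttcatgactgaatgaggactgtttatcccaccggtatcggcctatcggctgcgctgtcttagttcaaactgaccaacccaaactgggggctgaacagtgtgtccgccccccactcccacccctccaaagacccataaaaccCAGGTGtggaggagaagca
The Epcam window held the hexamer 2 times, with its first base 187 and 19 bases before the start, and both claudin windows held none. Windows were found for 7 of the 8 genes, 10 windows in all, and 4 windows of 4 genes (Cldn7, Ocln, F11r and Epcam) held the hexamer. Of all 32851 windows of this length, 17.2% held it. The Grhl motif AACCNGTT, searched on both strands, had 0 matches in the 10 windows, against 0.928% of all windows. A match is only a description of the letters. Cldn18 has 2 annotated starts, and the 3' tags counted here sum the transcripts of both.

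The Cldn3 gene lies at chr5:134986214-134987472 (plus strand, GRCm38), Cldn7 at chr11:69964779-69967885 (plus), Cldn18 at chr9:99689461-99717267 (minus), Ocln at chr13:100496507-100552718 (minus), F11r at chr1:171437535-171464603 (plus), Tjp1 at chr7:65296165-65527781 (minus), Cdh1 at chr8:106603351-106670246 (plus) and Epcam at chr17:87635979-87651129 (plus). Cldn3 overlaps the antisense gene Wbscr25 and Cldn18 overlaps the antisense gene Gm16004. The sources used here do not say how the counting treated strand, and whether reads of those partners entered the values was not tested.

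The library labelled IPKO held 10014 barcodes and 137471506 counted molecules (unique molecular identifiers, UMIs), whereas that labelled WT held 8924 barcodes and 127287281 UMIs, with 79 barcode sequences in both. After filtering, 8072 cells labelled IPKO and 6745 labelled WT were kept, with medians of 16665 and 18057 UMIs. Ptgir, the targeted gene, goes against the labels: it had 295 UMIs (2.36 CPM, counts scaled by total UMIs) in AT2 cells of the library labelled IPKO and 0 UMIs in those labelled WT, where 0 counts allow at most 0.0258 CPM. Over all kept cells Ptgir had 328 UMIs labelled IPKO and 1 UMI labelled WT. The deleted part of the gene is not given, and the cause of this pattern was not tested. The libraries are therefore named by their labels, and any direction between them rests on those labels. AT2 cells, meaning cells with Sftpc at 10% or more of their UMIs that fall in no other class, numbered 7118 labelled IPKO and 6123 labelled WT, and all 10 AT2 check markers were present in both. Cells called non-epithelial had Sftpc under 10% and at least 3 endothelial, immune or mesenchymal markers. There were 269 labelled IPKO (65 endothelial, 186 immune, 18 mesenchymal) and 121 labelled WT (64, 39 and 18), with medians of 4684 and 3833 UMIs. Keratin-high cells are the 5% of the remaining cells with the highest summed share of Krt7, Krt8, Krt18 and Krt19, 380 labelled IPKO and 321 labelled WT. They are a range of a score and not a cell type.

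In AT2 cells the 8 genes spanned levels from Cldn18 at the top to Ocln at the bottom, in the same order in both libraries. Cldn18 stood at 778 CPM in the library labelled IPKO and 677 CPM in the library labelled WT. Cldn3, a barrier-forming claudin, followed with 475 CPM labelled IPKO and 450 CPM labelled WT. Cdh1 had 209 CPM labelled IPKO and 219 CPM labelled WT, and was the most abundant of the genes that are not claudins. Epcam, the protein used for the sort, had 179 CPM labelled IPKO and 151 CPM labelled WT. Cldn7, whose protein binds that of Epcam, had 129 CPM labelled IPKO and 119 CPM labelled WT. F11r had 85.7 CPM labelled IPKO and 84.0 CPM labelled WT. The scaffold gene Tjp1 had 57.2 CPM labelled IPKO and 58.0 CPM labelled WT. Ocln was scarce, with 15.1 CPM labelled IPKO (1890 UMIs) and 14.3 CPM labelled WT (1666 UMIs). No 2 neighbours in this order had overlapping counting intervals within a library. The order is of tagged molecules (CPM), which do not depend on transcript length but can depend on how well each 3' end is captured.

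**Figure D1:**
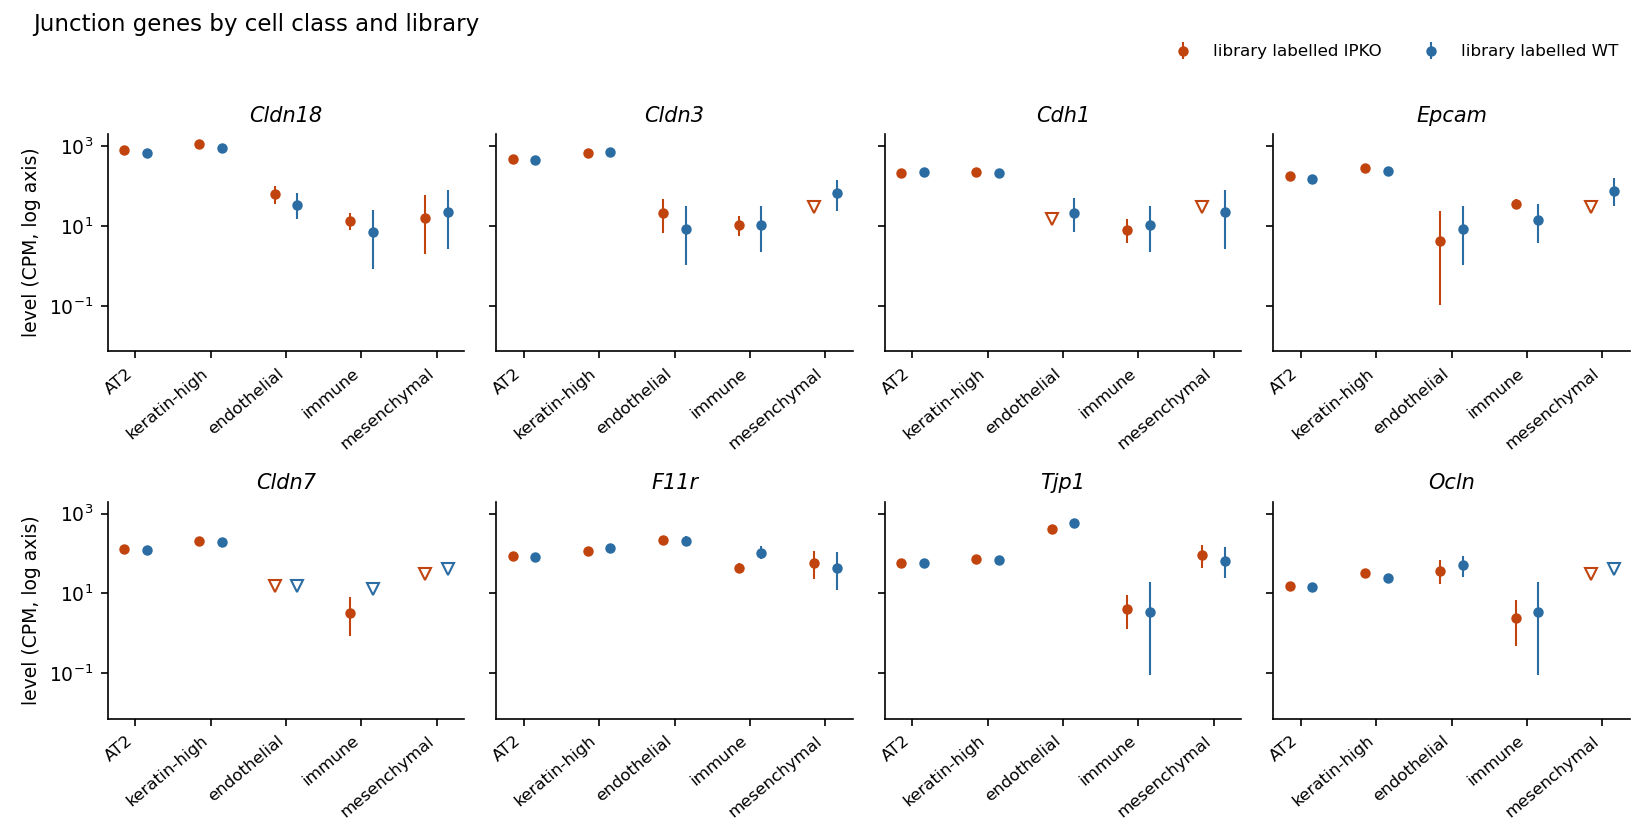
Level of each gene (CPM, log axis) summed over the cells of 5 classes, with the library labelled IPKO left of the library labelled WT; bars are exact 95% Poisson intervals and open triangles mark the upper limit where a gene had 0 UMIs. Cldn18, Cldn3, Cdh1, Epcam and Cldn7 sit lower in the non-epithelial classes than in AT2 cells, while Tjp1 sits highest in endothelial cells, at 409 and 574 CPM.

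The 3 most abundant genes were detected in nearly all AT2 cells. Cldn18 had a UMI in 99.6% of AT2 cells labelled IPKO and 99.7% labelled WT, Cldn3 in 99.2% and 99.1%, and Cdh1 in 94.4% and 96.9%. Ocln had one in 22.6% labelled IPKO and 23.0% labelled WT. When each cell was thinned to 2000 UMIs, which left out 6 and 10 AT2 cells, Cldn18 was detected in 76.4% of cells labelled IPKO (interval 75.4 to 77.4%) and 71.3% labelled WT (70.2 to 72.5%). At the same depth it was detected in 6 of 174 immune cells labelled IPKO (3.45%) and 0 of 34 labelled WT, a type that should lack it; before thinning the median depths were 17074 and 18363 UMIs in AT2 cells and 5605 and 5465 UMIs in immune cells. Thinned detection was 60.0% labelled IPKO and 58.3% labelled WT for Cldn3, 33.3% and 35.4% for Cdh1, and 30.4% and 26.7% for Epcam. It was 22.2% labelled IPKO and 20.5% labelled WT for Cldn7, 15.9% and 15.6% for F11r, 10.9% and 11.5% for Tjp1, and 2.95% and 3.32% for Ocln. The order of the libraries matched that of the CPM for each gene except Ocln, whose detection differed by less than its counting intervals.

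Among AT2 cells the thinned counts scattered almost as counting alone would give, but thinning itself draws the variance over the mean toward 1. These values therefore do not show how alike the cells were at full depth. The variance over the mean lay between 0.989 for Ocln and 1.17 for Cldn18 labelled IPKO, and between 0.993 for F11r and 1.16 for Cldn18 labelled WT. Over the 28 pairs of genes, Pearson's r between thinned counts ran from -0.0105 to 0.0432 labelled IPKO and from -0.0257 to 0.0407 labelled WT, too close to 0 to be read in counts this sparse. An AT2 cell at this depth showed 2.52 ± 1.17 of the 8 genes labelled IPKO and 2.43 ± 1.15 labelled WT (SD over cells). None of the 8 was seen in 3.08% of AT2 cells labelled IPKO and 3.35% labelled WT, against 80.5% and 79.4% of immune cells.

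Between the libraries, the junction genes of AT2 cells differed little. None of the 8 genes passed a log2 ratio of 0.32 between the library labelled IPKO and that labelled WT in either direction. Of the 8495 genes that averaged 5 CPM or more, 8.78% were that much higher and 4.85% that much lower labelled IPKO. The median log2 ratio of the 8 genes was 0.08 and that of all genes 0.06. Epcam had the largest ratio at 0.25 (interval 0.22 to 0.27, 1.19-fold), and Cldn18 followed at 0.20 (0.19 to 0.21, 1.15-fold). Cldn7 stood at 0.12 (0.09 to 0.15) and Cldn3 at 0.08 (0.06 to 0.09). Cdh1 was the lowest at -0.07 (-0.09 to -0.04). The intervals of Ocln (-0.02 to 0.17), F11r (-0.01 to 0.07) and Tjp1 (-0.07 to 0.03) contained 0. F11r changed sign in 3 of 15 alternative settings and Ocln in 1.

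The libraries also differed in cell state, and these measures move with the label. The median share of early response genes such as Jun and Fos was 0.457% of UMIs in AT2 cells labelled IPKO and 0.216% in those labelled WT. Heat shock genes took 0.142% labelled IPKO and 0.072% labelled WT, and mitochondrial genes 3.91% labelled IPKO and 5.27% labelled WT. Their part in the ratios was not tested. When AT2 cells of both libraries were divided at common bounds into tertiles of the early response share, the Epcam ratio was 0.19 in the low tertile, 0.23 in the middle and 0.14 in the high tertile. Cldn18 gave 0.19, 0.16 and 0.13 in the same order, and Cdh1 gave -0.08, -0.14 and -0.14. Tjp1 stood at 0.01 in the low tertile, -0.14 in the middle (interval -0.22 to -0.06) and -0.17 in the high tertile (-0.27 to -0.08). Epcam and Cldn18 were thus higher under the IPKO label in each tertile, and Cdh1 lower in each.

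**Figure D2:**
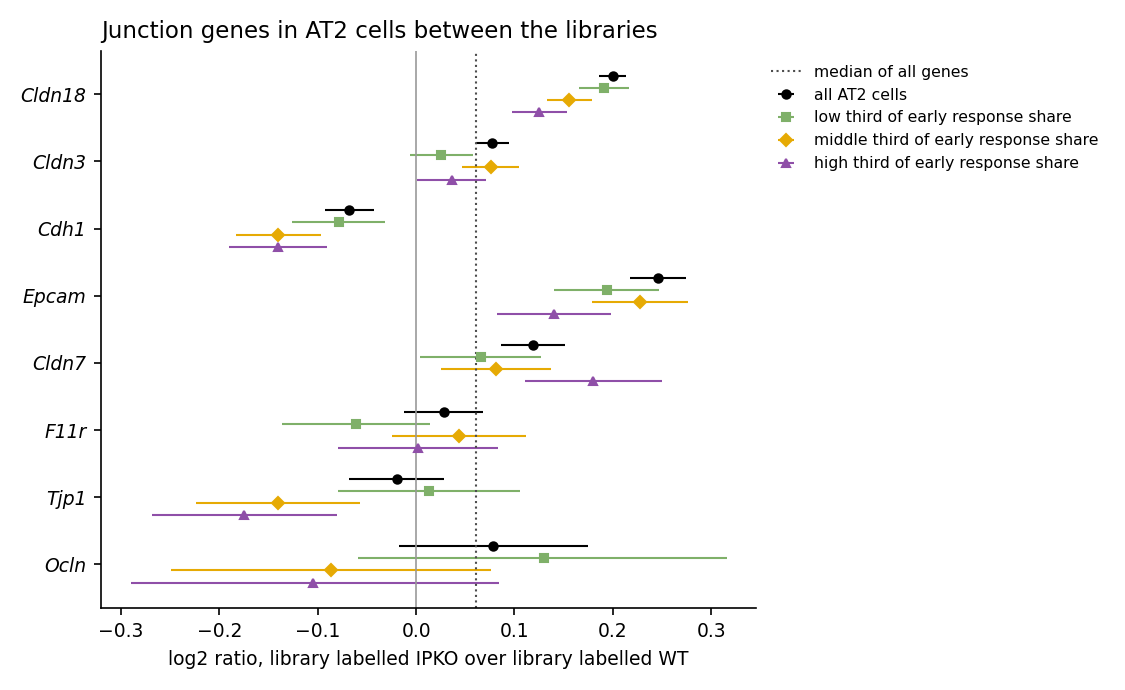
Log2 ratio of each gene in AT2 cells, library labelled IPKO over library labelled WT, for all AT2 cells and for each tertile of early response share, with exact 95% conditional binomial intervals; the dotted line is the median of all genes at 0.06. Epcam and Cldn18 lie right of 0 in all 4 sets and Cdh1 lies left of 0 in all 4.

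Within a library, levels were also set beside measures of cell state. In the high over the low tertile of early response share, all 8 genes were higher labelled IPKO, by log2 ratios of 0.10 to 0.23, where 79% of all genes were higher, and 7 of 8 labelled WT, where 79.1% were, with Ocln at 0.47 and Tjp1 at 0.36, while Cldn7 stood at -0.01 and the interval of F11r contained 0 labelled WT. The median ratio of the 8 genes was 0.14 labelled IPKO and 0.19 labelled WT, beside 0.12 and 0.15 for all genes, so the counts lie near the general share. Cells with Sftpc at 30% or more had less Tjp1 than cells at 10 to 20%, with log2 ratios of -1.18 labelled IPKO (interval -1.73 to -0.68) and -0.70 labelled WT (-1.15 to -0.28). Cdh1 showed -0.57 labelled IPKO and -0.63 labelled WT, while Cldn3 stood higher by 0.38 and 0.35. The medians of all genes in this contrast were -0.45 labelled IPKO and -0.38 labelled WT. This top range held 63 cells labelled IPKO and 66 labelled WT. Cells with 10 to 20% mitochondrial UMIs had less Epcam than cells under 5%, with log2 ratios of -0.62 labelled IPKO and -0.42 labelled WT, and less Cldn3, with -0.35 and -0.47. Cdh1 stood at 0.07 labelled IPKO and 0.30 labelled WT in the same contrast, beside medians of -0.044 and -0.023 for all genes (82 and 158 cells with 10 to 20%). Their median depth was 7230.5 UMIs labelled IPKO and 11404 labelled WT, against 17078 and 17944 UMIs under 5%.

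Keratin-high cells had more of most junction genes than AT2 cells of the same library. In the library labelled IPKO 7 of the 8 genes were higher in keratin-high cells by a log2 ratio of at least 0.32, where 19.9% of all genes were, and in the library labelled WT 6 of 8, where 27.6% were. None was lower by as much, against 7.84% of all genes labelled IPKO and 10.2% labelled WT. The median log2 ratio of the 8 genes was 0.52 labelled IPKO and 0.69 labelled WT, and that of all genes 0.10 and 0.13. The genes were not used to define these cells.

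Ocln had the largest ratio in both libraries. It stood at 32.3 CPM in keratin-high cells, against 15.1 CPM in AT2 cells, labelled IPKO (2.13-fold, interval 1.84 to 2.47). Labelled WT it had 25.1 CPM in keratin-high cells and 14.3 CPM in AT2 cells (1.75-fold, 1.47 to 2.08), an interval that overlaps those of Cldn3, Cldn7, Epcam and F11r. Cldn7 had 201 CPM in keratin-high cells and 129 CPM in AT2 cells labelled IPKO, and 199 and 119 CPM labelled WT (1.55-fold and 1.67-fold). Epcam had 276 CPM in keratin-high cells and 179 CPM in AT2 cells labelled IPKO, and 244 and 151 CPM labelled WT (1.54-fold and 1.61-fold). Epcam thus stood above Cdh1 in keratin-high cells and below it in AT2 cells, in both libraries. Cldn3 was 1.44-fold higher labelled IPKO (684 over 475 CPM) and 1.61-fold labelled WT (726 over 450 CPM). Cldn18 was 1.43-fold higher labelled IPKO (1110 over 778 CPM) and 1.34-fold labelled WT (911 over 677 CPM). F11r was 1.38-fold higher labelled IPKO (interval 1.28 to 1.48) and 1.68-fold labelled WT (1.56 to 1.81), and that difference between libraries was not tested. Tjp1 was 1.29-fold higher labelled IPKO and 1.18-fold labelled WT.

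Cdh1, the adherens junction cadherin, departed from the claudins. It had 229 CPM in keratin-high cells and 209 CPM in AT2 cells labelled IPKO (log2 ratio 0.13, interval 0.06 to 0.21). Labelled WT it had 216 CPM in keratin-high cells and 219 CPM in AT2 cells (-0.02, -0.10 to 0.06). Its ratio was thus close to that of all genes labelled IPKO and below it labelled WT, where it changed sign in 3 of 15 alternative settings.

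**Figure D3:**
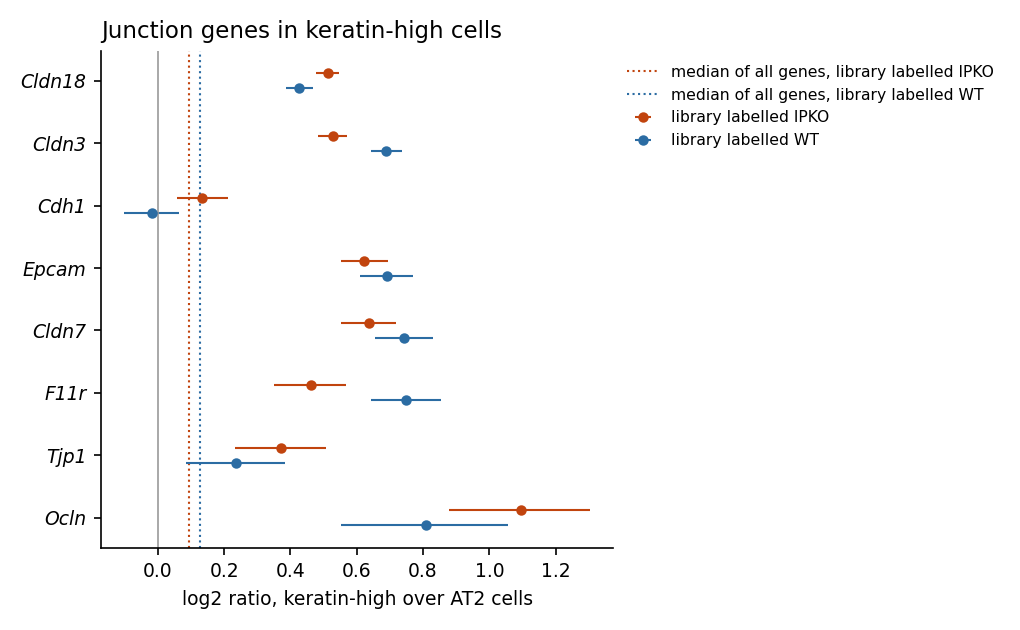
Log2 ratio of each gene in keratin-high over AT2 cells, with the library labelled IPKO above the library labelled WT, exact 95% conditional binomial intervals and dotted lines at the medians of all genes (0.10 and 0.13). Cdh1 labelled WT lies left of both dotted lines, Cdh1 labelled IPKO lies close to them, the other 7 genes lie right of both, and Ocln lies farthest right.

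The keratin-high cells differed from AT2 cells in other ways as well. AT2 check markers had a median log2 ratio of -0.36 labelled IPKO and -0.34 labelled WT, and AT1 check markers, of the flat gas exchange cells, 0.95 and 0.86. Of the transitional check markers 8 of 8 measured were higher past 0.32 in each library, and heat shock genes had medians of 0.35 labelled IPKO and 0.43 labelled WT. Airway markers summed to 1541 CPM in keratin-high and 415 CPM in AT2 cells labelled IPKO, with 9 of 10 markers present in keratin-high cells and Muc5b at 0, and to 504 and 1310 CPM labelled WT, again with Muc5b at 0. The part of airway RNA in these ratios was not tested. Restricting keratin-high cells to those with Sftpc at 10% or more (347 labelled IPKO, 299 labelled WT), as was chosen after seeing the data, left each ratio within its counting interval. Median depth was 16515.5 UMIs in keratin-high and 17074 in AT2 cells labelled IPKO, and 16721 and 18363 labelled WT.

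The difference was graded and did not start at the bound of 912 keratin CPM. Among cells with Sftpc at 10% or more, Cldn7 stood at 121, 132, 148, 169 and 239 CPM labelled IPKO over the keratin percentiles 0 to 50, 50 to 80, 80 to 95, 95 to 98 and 98 to 100. Labelled WT it stood at 112, 123, 138, 177 and 215 CPM over the same ranges. Ocln had 39.1 CPM in the highest and 13.6 CPM in the lowest range labelled IPKO, and 23.5 and 13.1 CPM labelled WT. Cldn3, Cldn18, Epcam and F11r increased at each step in both libraries. From the lowest to the highest range Cdh1 differed by 0.24 (log2, interval 0.11 to 0.36) labelled IPKO and by 0.05 (-0.09 to 0.19) labelled WT. Cells within 10% of the bound numbered 189 labelled IPKO and 137 labelled WT.

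**Figure D4:**
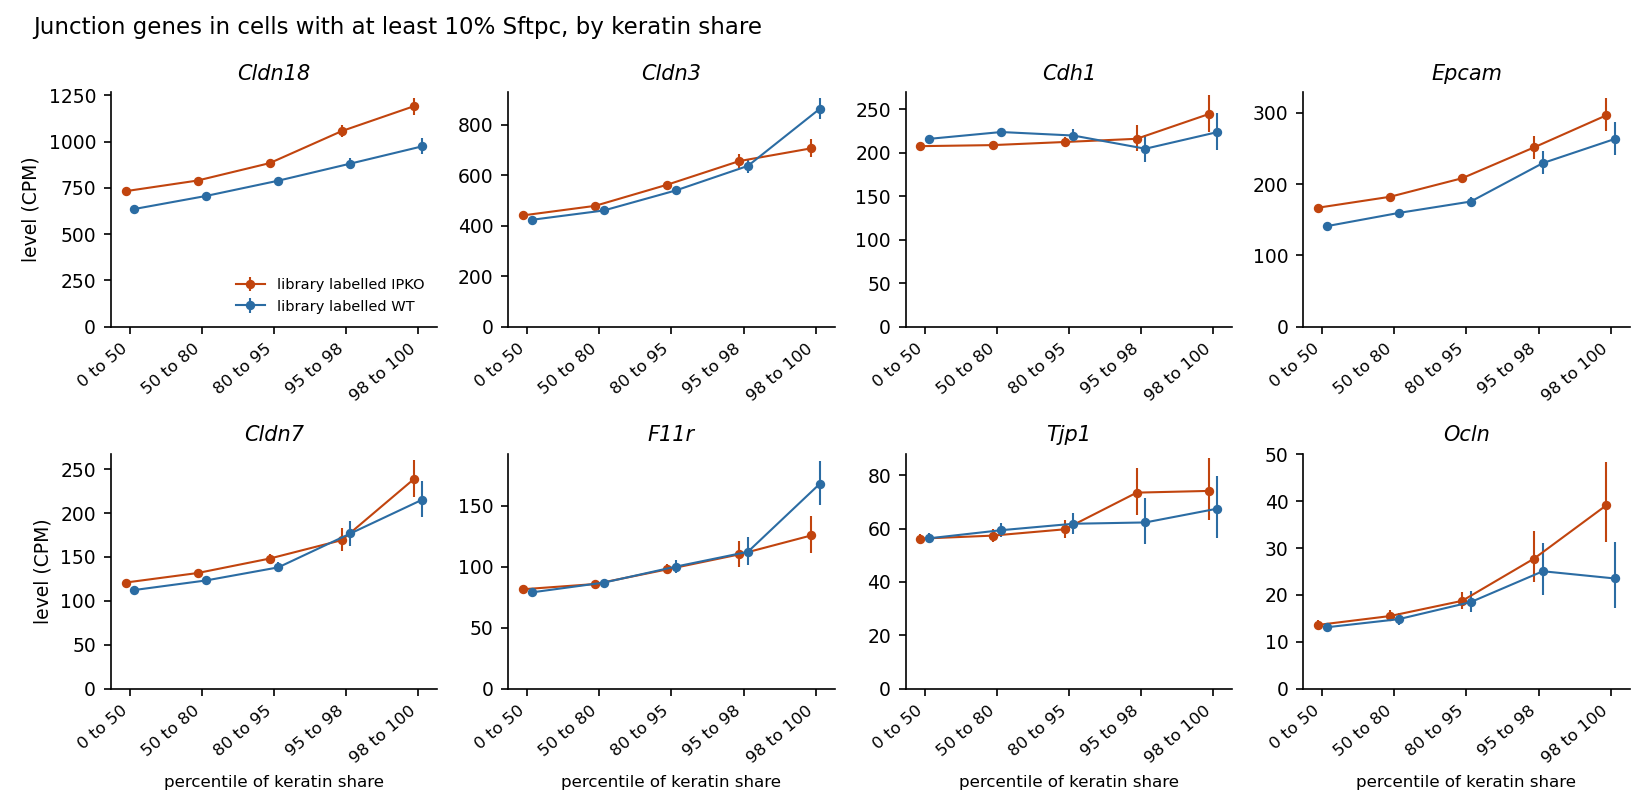
Level of each gene (CPM, linear axis from 0) over 5 ranges of keratin share in cells with at least 10% Sftpc, with the library labelled IPKO left of the library labelled WT and exact 95% Poisson intervals. Cldn7 and Epcam climb through the ranges in both libraries while Cdh1 stays between 205 and 245 CPM.

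In keratin-high cells Ocln, Cldn18 and Epcam stood higher labelled IPKO than labelled WT, and F11r and Cldn3 stood lower. Ocln was 1.29-fold higher labelled IPKO (interval 1.03 to 1.61), making 1 of 8 genes higher past a log2 ratio of 0.32, where 13.5% of all genes were, and none was lower by as much, where 10.1% were. F11r had a log2 ratio of -0.26 (-0.41 to -0.11), with 118 CPM labelled IPKO and 141 CPM labelled WT. Cldn3 stood at -0.08 (-0.15 to -0.02), Cldn18 at 0.29 (0.23 to 0.34) and Epcam at 0.18 (0.07 to 0.28).

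Outside the epithelium the 8 genes divided. Cldn3, Cldn7, Cldn18, Cdh1 and Epcam were at least 2-fold higher in AT2 cells than in non-epithelial cells of both libraries, and Ocln labelled IPKO only (2.04-fold, interval 1.16 to 3.95). That made 6 of 8 genes higher and 0 lower labelled IPKO, where 12.4% and 34.8% of all genes were, and 5 higher and 1 lower (Tjp1) labelled WT, where 10.1% and 43.2% were. The median log2 ratio was 3.87 labelled IPKO and 3.29 labelled WT, against -0.57 and -0.82 for all genes, with genes at 0 UMIs set at 3 counts. These sums mix cell types in unlike proportions, with 186 immune cells of 269 labelled IPKO and 39 of 121 labelled WT, so the types are given apart below.

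Against endothelial cells alone, 5 genes were 2-fold higher and 3 were 2-fold lower in AT2 cells in both libraries, where 10.8% of all genes were higher in each and 44% labelled IPKO and 46.7% labelled WT were lower. The 3 lower were Tjp1, F11r and Ocln, the scaffold, the adhesion molecule and occludin. Tjp1 had 57.2 CPM in AT2 cells and 409 CPM in endothelial cells labelled IPKO, and 58.0 and 574 CPM labelled WT. F11r had 85.7 CPM in AT2 cells and 215 CPM in endothelial cells labelled IPKO, and 84.0 and 208 CPM labelled WT. Ocln had 15.1 CPM in AT2 cells and 37.2 CPM in endothelial cells labelled IPKO, and 14.3 and 51.1 CPM labelled WT, but rested there on 9 and 12 UMIs. With median-of-ratios scaling, F11r had log2 ratios of AT2 over endothelial cells of -0.61 labelled IPKO and -0.52 labelled WT, and Ocln -0.58 labelled IPKO, all short of 2-fold, while Tjp1 stayed past it in all 15 settings, between -3.04 and -2.12 labelled IPKO and between -3.47 and -2.51 labelled WT. Cldn7 had 0 UMIs in endothelial cells. Setting these at 3 counts, it was 10.4-fold higher in AT2 cells labelled IPKO (lower limit 8.48-fold) and 9.33-fold labelled WT (lower limit 7.58-fold). Cdh1 had 0 UMIs in endothelial cells labelled IPKO, 16.9-fold below AT2 cells at 3 counts (lower limit 13.7-fold), and 5 UMIs labelled WT. Cldn5, the endothelial claudin, had 228 UMIs (1.82 CPM) in AT2 cells labelled IPKO, lying in 36 of 7118 cells, and 4214 CPM in endothelial cells. Labelled WT it had 85 UMIs (0.730 CPM) in AT2 cells and 4629 CPM in endothelial cells. Thinned to 2000 UMIs, Tjp1 was detected in 10.9% of AT2 cells and in 24 of 46 endothelial cells labelled IPKO (52.2%), and in 11.5% and 33 of 54 (61.1%) labelled WT.

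Free RNA of AT2 cells would carry the junction genes and Sftpc in 1 ratio into every droplet, so each gene was also counted per Sftpc UMI. The ratio in AT2 cells stands in for that of free RNA, which was not measured. On that scale the log2 ratio of endothelial over AT2 cells was 7.96 (interval 7.66 to 8.24) for Tjp1 labelled IPKO and 8.68 (8.43 to 8.93) labelled WT. F11r was 87.2-fold above labelled IPKO and 103-fold labelled WT, and Ocln 85.6-fold and 148-fold. Cldn3 was at 1.51-fold (0.491 to 3.53) labelled IPKO and 0.785-fold (0.0951 to 2.84) labelled WT, intervals that contain 1. The source of its few UMIs there was not tested. Cldn18 stood at 2.77-fold (1.55 to 4.57) labelled IPKO, from 15 UMIs in 5 cells, and at 2.09-fold (0.901 to 4.11) labelled WT. Cdh1 stood at 4.03-fold (1.31 to 9.41) labelled WT, from 5 UMIs, and had 0 UMIs labelled IPKO.

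**Figure D5:**
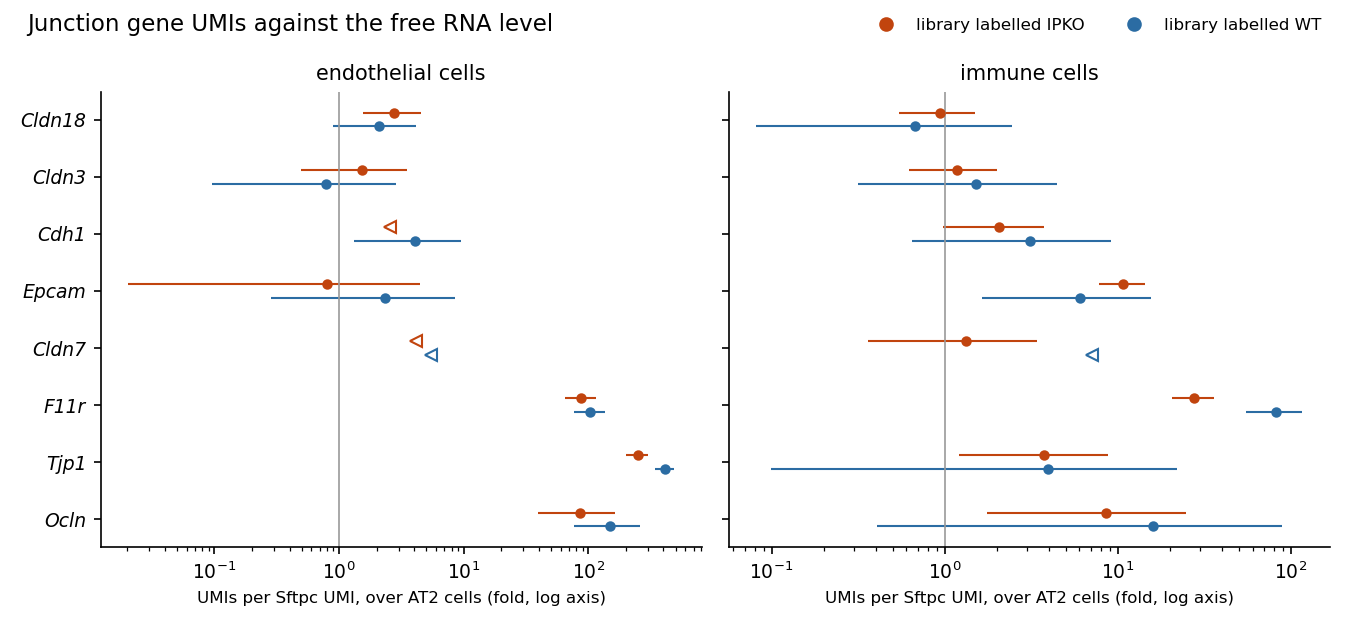
UMIs of each gene per Sftpc UMI in endothelial cells (left) and immune cells (right), as a fold of the same ratio in AT2 cells (log axis), with the library labelled IPKO above the library labelled WT and exact 95% intervals; open triangles mark upper limits at 0 UMIs and the grey line marks 1, the value free AT2 RNA would give. Tjp1, F11r and Ocln lie far right of 1 in endothelial cells, and F11r and Epcam lie right of 1 in immune cells. On few UMIs, intervals also lie right of 1 for Cldn18 labelled IPKO and Cdh1 labelled WT in endothelial cells. The same holds for Ocln and Tjp1 labelled IPKO in immune cells.

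In immune cells, against which 7 of 8 genes were 2-fold higher in AT2 cells in both libraries (17.9% of all genes labelled IPKO and 16.2% labelled WT) and 0 were lower (31.6% and 36.7%), the exception was F11r. For Ocln the count rests on 3 UMIs in immune cells labelled IPKO (log2 ratio 2.66, interval 1.11 to 4.94) and 1 UMI labelled WT (2.03, -0.45 to 7.33, which contains 0). With cells thinned to 2000 UMIs, leaving out shallower ones, no Ocln UMI was left in immune cells. Setting these at 3 UMIs, the log2 ratios were 0.79 labelled IPKO and -1.37 labelled WT. F11r had 85.7 CPM in AT2 cells and 43.8 CPM in immune cells labelled IPKO, and 84.0 and 105 CPM labelled WT. Per Sftpc UMI it was 27.5-fold above AT2 cells labelled IPKO and 81.6-fold labelled WT. Divided by lineage, a step chosen after these values were seen, the F11r UMIs lay in myeloid cells, with 53 UMIs in 21 of 85 cells labelled IPKO and 29 UMIs in 10 of 23 cells labelled WT. T and NK cells held 2 UMIs in 67 cells labelled IPKO and 1 UMI in 11 cells labelled WT. Within myeloid cells F11r had 81.2 CPM labelled IPKO (interval 60.8 to 106) and 147 CPM labelled WT (98.8 to 212). The makeup of immune cells thus differed between libraries beside the F11r level, and its part in the difference was not tested.

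Epcam, on whose protein the cells were sorted, also had more UMIs per Sftpc UMI in immune than in AT2 cells, and their source was not tested. It had 45 UMIs in 17 of 186 immune cells labelled IPKO, 10.7-fold per Sftpc UMI (interval 7.83 to 14.4), and 4 UMIs in 3 of 39 labelled WT, 6.04-fold (1.65 to 15.5). Myeloid cells held 39 of these UMIs in 13 cells labelled IPKO and all 4 in 3 cells labelled WT. The 5 immune cells with the most Epcam held 28 of the 45 UMIs labelled IPKO. In endothelial cells Epcam had 1 UMI labelled IPKO and 2 UMIs labelled WT, although these cells had passed the same gate. In mesenchymal cells, 18 in each library, Tjp1 had 11 UMIs (89.4 CPM) labelled IPKO and 6 UMIs (65.7 CPM) labelled WT, and Cldn7 and Ocln had 0 in both. Epcam had 0 UMIs in mesenchymal cells labelled IPKO and 7 UMIs (76.6 CPM) in 2 of 18 labelled WT, 23.7-fold per Sftpc UMI (interval 9.54 to 48.9). Cldn3 had 0 UMIs in mesenchymal cells labelled IPKO and 6 UMIs in 5 of 18 labelled WT, 6.84-fold per Sftpc UMI (2.51 to 14.9).

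Other genes of the same structures were read from 7 lists of junction genes and their regulators. Of 71 members averaging 5 CPM or more in AT2 cells, 6 were higher labelled IPKO than labelled WT by a log2 ratio of at least 0.32 and 2 were lower by as much, where 8.78% of all genes were higher and 4.85% lower, so the counts lie near the general share. Those higher were Tjp3 (18.6 CPM labelled IPKO, 14.8 CPM labelled WT), a relative of Tjp1, the kidney cadherin Cdh16 (24.6 and 17.5 CPM), the gap junction gene Gjb1 (7.51 and 5.93 CPM), the protease inhibitor Spint1 (55.5 and 42.6 CPM), the sheddase Adam17 (39.8 and 31.6 CPM) and the transcription factor Elf5 (45.3 and 33.1 CPM). Among those lower was the transcription factor Elf3, with 35.2 CPM labelled IPKO and 49.2 CPM labelled WT (log2 ratio -0.48). By list, the medians lay between -0.08 for the 1 other claudin measured, Cldn12, and 0.13 for the 14 regulators, beside 0.06 for all genes.

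Among claudins outside the 8, Cldn12 reached 11.1 CPM labelled IPKO and 11.7 CPM labelled WT in AT2 cells, near Ocln. Cldn4, known from injured alveolar epithelium, had 12 UMIs (1.91 CPM) in keratin-high cells and 10 UMIs (0.0799 CPM) in AT2 cells labelled IPKO, and 15 UMIs (2.65 CPM) and 13 UMIs (0.112 CPM) labelled WT. In keratin-high over AT2 cells, 19.9% of all genes labelled IPKO and 27.6% labelled WT were higher past 0.32. Lower by as much were 7.84% and 10.2%. Of the other tight junction membrane genes 5 of 7 measured were higher past 0.32 in both libraries, with medians of 0.40 labelled IPKO and 0.46 labelled WT. Among them Crb3, an apical polarity protein, stood at 0.43 and 0.65, and Igsf5, an adhesion molecule of tight junctions, at 0.62 and 0.53. Of the plaque and polarity genes 4 of 15 labelled IPKO and 5 of 15 labelled WT were higher, near the share of all genes, and 1 was lower labelled IPKO. Adherens junction genes gave 5 of 12 higher and 1 lower labelled IPKO, and 7 of 12 higher and 1 lower labelled WT. The catenin gene Ctnna1 stood at 0.58 and 0.64, the nectin gene Pvrl1 at -0.84 and -0.85, and Ctnnb1, whose protein binds E-cadherin, at -0.03 and -0.18. Desmosome and gap junction genes gave 6 of 9 higher labelled IPKO and 5 of 8 labelled WT, with Perp, a desmosome component, at 1.07 and 1.36 and the plakophilin gene Pkp2 at 0.84 and 0.68. The Epcam family and its protease system gave only 2 of 13 higher labelled IPKO and 5 of 13 labelled WT. Regulators gave 1 of 14 higher and 2 lower labelled IPKO, and 2 of 14 higher and 2 lower labelled WT.

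Among factors known to act on junction genes, Grhl2, an activator of Cdh1 and claudin genes, had 20.5 CPM in AT2 cells and 2 UMIs in endothelial cells labelled IPKO, and 18.1 CPM and 0 UMIs labelled WT. Zeb1, a repressor that binds the hexamer printed above, had 55 UMIs (0.440 CPM) in AT2 cells and 82.6 CPM in endothelial cells labelled IPKO, and 39 UMIs (0.335 CPM) and 174 CPM labelled WT. Snai2 had 1 UMI in AT2 cells labelled IPKO and 2 UMIs labelled WT.

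Over 14 points, 7 sums of cells in each library (the tertiles of AT2 cells, keratin-high, endothelial, immune and mesenchymal cells), the pattern of each gene was set beside 4404 other genes by Pearson's r of log2(CPM + 5). The points of a library share its depth and free RNA, and most genes of AT2 cells follow the same contrast of epithelial with other cells, so these values are a description only. Cldn7 was most like Igsf5 (r = 0.999) and Elfn1 (0.996), Cldn3 like Cystm1 (0.992) and Azin2 (0.989), and Cldn18 like Ager (0.993) and Sftpd (0.988). Cdh1 was most like Dcxr (0.985) and Sec14l4 (0.978), and Epcam like Plekhd1 (0.955) and Tspan1 (0.955). Tjp1 was most like Vegfa (0.978) and Marveld1 (0.976), Ocln like Bik (0.972) and Mex3c (0.961), and F11r like Casz1 (0.932) and Cdc73 (0.913), the lowest of the 8.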

How the data were processed

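Single-cell RNA was measured with the 10x Genomics 3' kit v3.1 in 2 libraries, 1 labelled IPKO and 1 labelled WT. The authors deposited unnormalized UMI counts for each barcode. Per the submitters' processing notes Cell Ranger 4.0.0 and GRCm38 (mm10) were used, and the sources used here do not give the annotation release. Gene IDs were matched to GENCODE vM21 for positions (27722 of 27998, 99.0%). Computations used Python 3.11.15, numpy 2.4.6, scipy 1.17.1, pandas 2.3.3 and matplotlib 3.10.9.

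Barcodes with under 500 genes (1682 labelled IPKO, 1911 labelled WT) or over 20% mitochondrial UMIs (1725 and 2055) were left out. No doublet caller was run; leaving out the 8% of cells with most UMIs was an alternative. Cell classes were cut from Sftpc, keratin and marker shares, with at least 5 keratin UMIs for keratin-high cells, without clustering. Of the non-epithelial classes a marker sum of at least 0.1% of UMIs was asked, and airway cells (14 labelled IPKO, 9 labelled WT) and other cells (291 and 171) entered no class compared here. Kept cells with Sftpc at 9 to 10% numbered 54 labelled IPKO and 28 labelled WT, and at 10 to 11% 41 and 35. UMIs were summed per class and library and given as CPM. Levels have exact Poisson, ratios exact conditional binomial and shares exact Clopper-Pearson intervals at 95%; UMIs of 1 cell are not independent samples of a genotype. A gene at 0 UMIs was set at 3 counts. The steps were tested on simulated counts. Cells sum to 135001580 UMIs labelled IPKO and 124228102 labelled WT, so counting error is small in AT2 cells and limits classes of few cells.

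Named genes are the 8 genes, Ptgir, the 3 highest and 3 lowest ratios and 3 most abundant genes of each list, and the 2 genes most like each of the 8. Cldn4, Cldn5, Grhl2, Zeb1 and Snai2 were added after their values were seen. The value of 1 list gene is not reported here. The genes and lists were chosen with earlier results of these data known. Between labels and states a gene was counted from a log2 ratio of 0.32, and between lineages from 2-fold. Alternatives changed the filters, the Sftpc and keratin bounds, scaling, thinning and the treatment of possible doublets.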

Additional observations from a re-analysis of the deposited data

Results flagged for a closer look

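Some ratios had opposite signs in the 2 libraries. In no case was the difference between libraries tested, since each label has 1 library. On the log2 scale, Cdh1 in keratin-high over AT2 cells was 0.13 labelled IPKO and -0.018 labelled WT. In AT2 over non-epithelial cells, Ocln was 1.03 labelled IPKO and -0.57 labelled WT, and F11r 0.28 and -0.69. In AT2 over immune cells F11r was 0.97 labelled IPKO and -0.33 labelled WT, where the interval of the WT value reached from -0.84 to 0.24. In AT2 cells with 30% or more Sftpc over those with 10 to 20%, Ocln was -0.82 labelled IPKO and 0.23 labelled WT, and Epcam 0.0066 and -0.014, all with intervals that contain 0. In the high over the low tertile of early response share Cldn7 was 0.10 labelled IPKO and -0.01 labelled WT. In cells with 10 to 20% over those under 5% mitochondrial UMIs Tjp1 was 0.23 labelled IPKO and -0.17 labelled WT, again with intervals that contain 0.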

How the results depend on the processing

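No paired analysis was possible because each label has 1 library and the libraries carry no shared replicate number. Each value was recomputed under 15 settings. Of the medians and counts over the genes, 99 values stayed close to the reported one and 12 moved beyond its counting interval or by over 1.5 times. Median-of-ratios scaling gave 0.019 for the AT2 median ratio (0.08 reported), and 0.43 labelled IPKO and 0.57 labelled WT for the keratin-high medians (0.52 and 0.69 reported). Those medians were 0.47 and 0.57 after thinning to 2000 UMIs, 0.61 and 0.79 with keratin-high as the highest 2%, and 0.43 and 0.53 with the highest 10%. With no minimum level, 20 other junction genes were higher and 12 lower past a log2 ratio of 0.32. Of all genes, 20.8642% were higher and 12.024% lower at that setting, so these counts lie near the general share. From 20 CPM, Cdh16, Spint1, Adam17 and Elf5 were higher and 1 gene was lower, where 6.58% and 5.04% of all genes were. Of single-gene values 1410 stayed close, 111 moved and 2 changed direction outside their interval: Tjp1 in AT2 over non-epithelial cells labelled IPKO was -0.31 as reported, 0.060 on UMIs without Sftpc and mitochondrial genes and 0.11 with median-of-ratios scaling. The cause was not tested. Leaving out barcodes found in both libraries, an alternative chosen after seeing the data, moved none of the values beyond its interval. Depth limits the endothelial, immune and mesenchymal values most.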
